A study of Mus musculus with 4 samples.

Results

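A list of 40 imprinted mouse genes in 15 domains was matched by symbol to the rows of 1 expression table of 23552 genes. Of the 40 genes, 35 had a row. H19, Zim1, Snrpn, Snurf and Magel2 were not analysed here. Imprinted genes are transcribed mainly from 1 of the 2 parental chromosomes. They lie in clusters, called domains here, in which an imprinting control region carries DNA methylation on the chromosome from 1 parent. The unmethylated copy often drives a long noncoding RNA that silences neighboring genes. H3K9me3, the histone mark that SUV39H1 writes, is found with DNA methylation on the silent copy of many control regions, where KRAB zinc finger proteins such as ZFP57 recruit TRIM28 and SETDB1. In blood, imprinted growth regulators such as the H19, Dlk1 and Grb10 genes are known for their expression in stem cells.

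The table holds 4 RNA-seq libraries of c-Kit+ bone marrow cells from moribund C57BL/6 mice with acute myeloid leukemia (AML) that MLL-AF9 (MA9) induced, sequenced as RNA-seq batch 2. MLL-AF9 is a fusion oncogene, and c-Kit+ enrichment selects the immature leukemic fraction. The 2 control libraries (replicates 3 and 4) came from MA9 AML overexpressing eGFP, and the 2 SUV-OE libraries (replicates 2 and 3) from MA9 AML with virally delivered Suv39h1 beside the same marker. Every group thus carried the MLL-AF9 oncogene and a viral vector, and no normal marrow was among the libraries. Recipients were 8 weeks old. The labels do not say whether libraries of a group came from separate mice, so p-values measure the spread between these libraries, which may be technical. In bulk RNA, fewer cells of a type and less RNA per cell cannot be told apart. Parental alleles were not measured, so each value is the sum over both chromosomes, and loss or gain of imprinting cannot be read from it.

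Levels are FPKM, fragments scaled to exon length and library depth, and can be compared between genes as levels per length. The reads behind each FPKM were recovered from the steps between values and came to 20151346 to 23649172 per library. The FPKM of 3 reads over 1 kb of exon lay between 0.154 and 0.178, a floor for counting error alone. Genes averaging 0.5 FPKM or more across the libraries entered a limma test on log2(FPKM + 1), a scale that understates changes of low genes. A gene was called at an adjusted p under 0.05 over all 13736 tested genes and an absolute log2 fold change (SUV-OE minus control) of at least 1. The targeted gene, Suv39h1, had an FPKM of 12.4 in both control libraries and of 75.3 and 81.2 in SUV-OE. Kit, whose product was the marker for enrichment, measured 20.4 and 19.2 FPKM in the controls and 28.6 and 25.4 FPKM in SUV-OE, so the labelled cell type carried its defining marker in each library.

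The domain on which the comparison turns is that of Igf2r and Airn. Igf2r (ENSMUSG00000023830) lies on the minus strand of chr17:12682406-12769664 in mm10 and encodes the cation-independent mannose-6-phosphate receptor, which clears IGF2 and carries lysosomal enzymes. Airn (ENSMUSG00000078247) lies on the plus strand of chr17:12741311-12860136 and is the noncoding RNA known to silence Igf2r on the paternal chromosome. Airn starts inside Igf2r, 28.4 kb from the Igf2r start, and runs out past it over 119 kb. Their promoters, the 250 bases before each RefSeq start in GRCm38.p6 (the mm10 assembly), are shown because both transcripts were lower in SUV-OE. CG dinucleotides, the sites of DNA methylation, are in capitals. The Igf2r window is chr17:12769707-12769956 on the minus strand and the Airn window chr17:12741061-12741310 on the plus strand.
Igf2r: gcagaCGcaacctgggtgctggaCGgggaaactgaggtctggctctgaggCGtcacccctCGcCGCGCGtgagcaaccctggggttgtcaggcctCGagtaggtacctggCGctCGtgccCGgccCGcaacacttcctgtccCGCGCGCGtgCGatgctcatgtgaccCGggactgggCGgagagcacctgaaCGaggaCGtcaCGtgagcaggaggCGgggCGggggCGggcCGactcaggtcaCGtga
Airn: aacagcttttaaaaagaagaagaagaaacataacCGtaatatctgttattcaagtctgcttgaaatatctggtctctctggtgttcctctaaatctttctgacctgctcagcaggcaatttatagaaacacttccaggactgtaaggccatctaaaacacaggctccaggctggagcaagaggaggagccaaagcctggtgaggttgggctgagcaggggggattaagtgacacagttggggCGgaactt
The Igf2r window held 27 CG, a number reached or passed by 8.56% of all 32851 promoters, and the Airn window held 2, reached or passed by 81.2%. Promoters were given for 32 of the 40 imprinted genes (47 windows), with a median of 12 CG beside 6 over all promoters. The ZFP57 motif TGCCGC, searched on both strands, was in 7 of the 47 windows (14.9%), those of 6 genes since 2 nearly identical windows belong to Mest, and in 8.68% of all promoters. The YY1 motif GCCATNTT, searched in the same way, was in 1 of the 47, that of Ube3a (2.13%), and in 3.91% of all. Neither motif was in the Igf2r or the Airn window. The motifs can share bases at their ends, no window of these genes held both, and a match is a description of these letters only.

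Of the 35 imprinted genes with a row, 15 reached the mean FPKM needed for the test and 20 did not, where 58.3% of all genes in the table were tested. The tested genes came from 9 of the 15 domains. The highest were Nap1l4, Cd81, Tssc4, H13 and Copg2, the 5 genes whose mean reached 10 FPKM. Of the 20 low genes, 9 had no library with more than 3 reads, namely Dlk1, Igf2, Kcnq1, Mirg, Ndn, Peg3, Phlda2, Rian and Rtl1. The table lists no gene at 0 in all 4 libraries, so a row shows some signal in at least 1 library. That signal can be very low, as for Phlda2, with 2 reads in SUV-OE replicate 3 and 0 in each other library. The plot of FPKM by library shows these levels by domain.

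**Figure D1:**
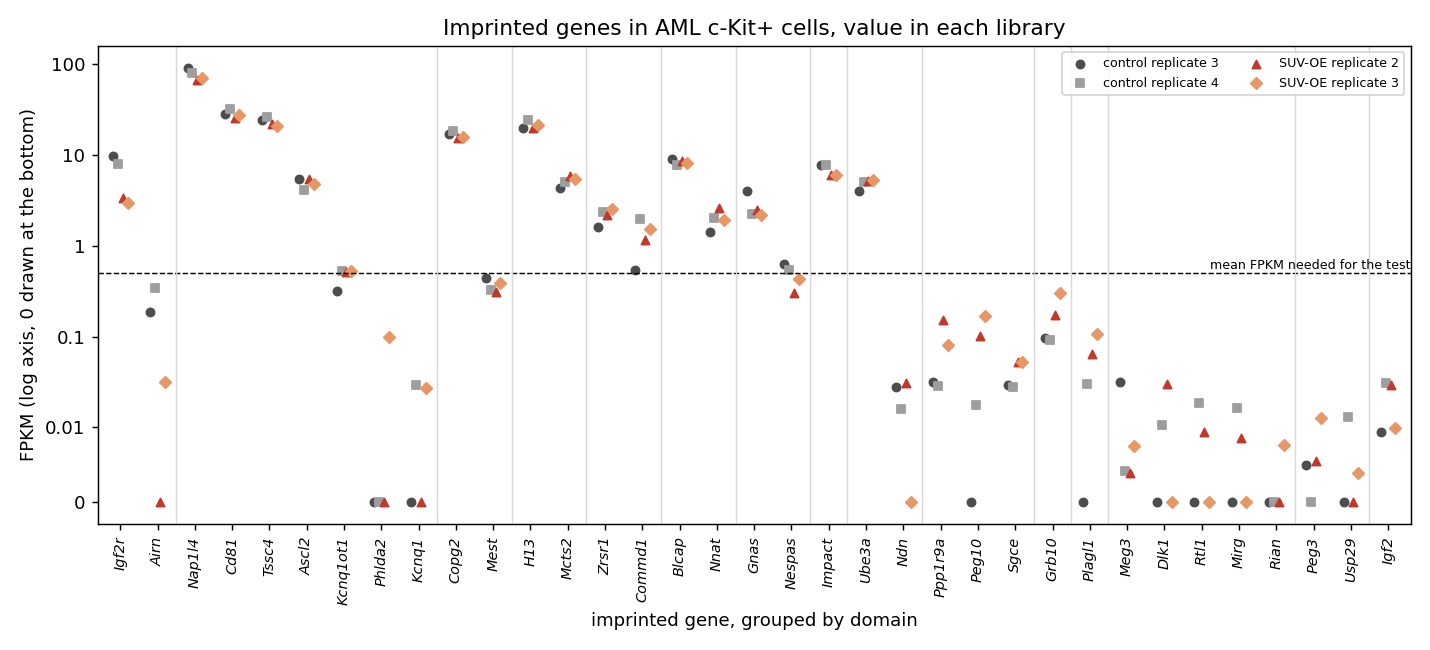
FPKM of the 35 imprinted genes with a row in each of the 4 libraries, on a log axis with 0 drawn at the bottom and domains separated by vertical lines. Points are libraries, and the dashed line is a mean FPKM of 0.5, above which 15 genes were tested. Igf2r and Airn are the pair at the left, in which both SUV-OE libraries lie below both control libraries.

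No imprinted gene was called higher in SUV-OE, where 0.815% of all tested genes were. Igf2r alone was called lower, 1 of 15, where 0.408% of all tested genes were (1.22% in either direction). By unadjusted p under 0.05, 2 of the 15 passed (Igf2r and Impact), where 20.7% of all tested genes did. The tested genes had 7 positive and 8 negative log2 fold changes with a median of -0.08, beside -0.02 over all tested genes, of which 53% were negative. Both SUV-OE libraries lay above both controls in 2 (Ube3a and Mcts2) and below in 6 (Igf2r, Tssc4, Cd81, Nap1l4, Copg2 and Impact), and in 7 the groups overlapped. Over all tested genes these shares were 25.4% above and 28.4% below. Without Igf2r, the 14 others ranged from -0.33 to 0.27 in log2 fold change.

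**Figure D2:**
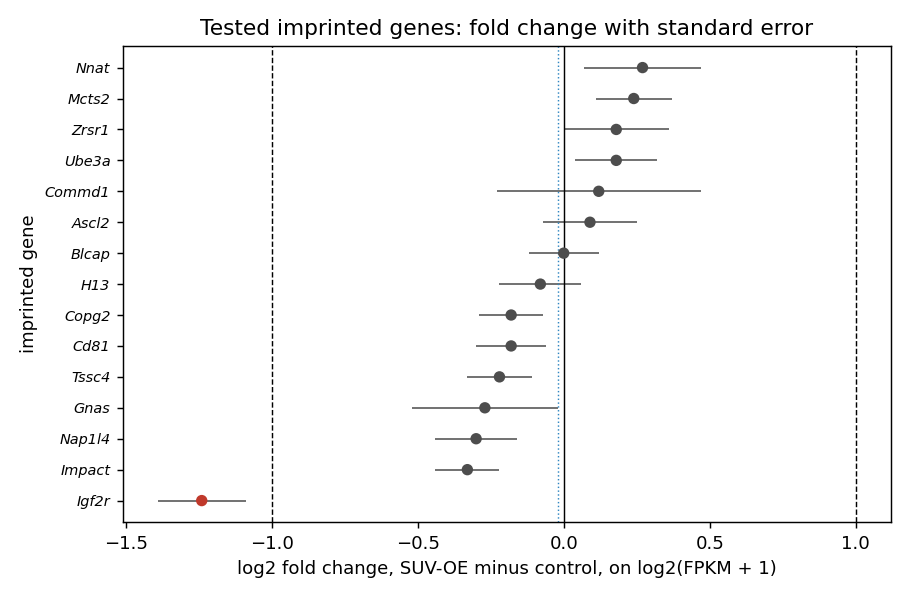
The log2 fold change (SUV-OE minus control, on log2(FPKM + 1)) of the 15 tested imprinted genes, with bars of 1 standard error. Dashed lines mark -1 and 1, the dotted line the median of all tested genes (-0.02), and the red point is Igf2r at -1.24, the only gene called.

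In the Igf2r domain, Igf2r measured 9.79 and 7.96 FPKM in the controls and 3.36 and 2.97 FPKM in SUV-OE, or 8.88 ± 1.29 against 3.16 ± 0.27 (SD, n = 2 each). Both control libraries stood well above the higher SUV-OE library, and the groups did not overlap. In log2 terms SUV-OE minus control was -1.24 ± 0.15 (standard error, limma adjusted p = 0.0434), and 90 of the 13736 tested genes were at or below it. The recovered reads were 1798 and 1268 in the controls against 562 and 499 in SUV-OE, a ratio of 0.354 at the depths used in the FPKM (95% counting interval 0.33 to 0.38) and of 0.378 per recovered read. The call was lost on leaving out any of the 4 libraries, fits in which no gene of the table was called, with adjusted p from 0.115 to 0.351, at a pseudocount of 0.1 (adjusted p = 0.0514) and without the filter on low values (adjusted p = 0.135). In these fits the log2 fold change stayed between -1.45 and -1.11. With limma-voom on recovered reads, at a mean of at least 10, it was -1.39 (standard error 0.18, adjusted p = 0.00794). That fit tested 20 of the 40 genes and called no other, where 0.966% of its 14291 tested genes were called lower and 4.44% higher.

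Airn was too low for the test, with 0.187 and 0.347 FPKM in the controls and 0 and 0.0314 FPKM in SUV-OE. These values stand for 13 and 21 reads in the controls against 0 and 2 in SUV-OE, so both SUV-OE libraries lay below both controls. The pooled ratio at the depths used in the FPKM was 0.0602 (95% counting interval 0.007 to 0.235), and 0.0643 per recovered read. With limma-voom at a mean of at least 1 read, a fit added once the values were known, Airn stood at a log2 fold change of -3.77 (standard error 1.10, adjusted p = 0.115). In that fit 31 imprinted genes were tested and Igf2r alone was called, where 0.557% of 20988 genes were called lower and 2.64% higher. Airn and Igf2r share no exon bases, but 519 exon bases of Igf2r lie inside the Airn span and 114 of Airn inside that of Igf2r, and the library kit does not mark strand. The reads of both genes rest on an exon length other than the annotated length.

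The other genes within 250 kb of the Igf2r start were 14 with a row, of which 7 were tested and 0 called. Without Gm23833, which reached the test through its control values alone, 3 of 6 had an unadjusted p under 0.05 (20.7% of all tested genes). Gm23833, annotated as a small noncoding RNA inside the Airn span, had 7 and 4 reads in control and none in SUV-OE. Gm16574 and Gm7162, processed pseudogenes in the same span, each had 4 and 2 reads in the controls against 0 and 1 in SUV-OE. Like Gm23833, they lie wholly inside that span, and the library kit does not mark strand. Reads at Gm23833, Gm16574 and Gm7162 thus cannot be told apart from Airn transcript. Mas1, a G protein-coupled receptor gene that overlaps the far end of Airn, had 3 and 3 against 0 and 1. Gm23833, Gm16574, Gm7162 and Mas1 were each lower in both SUV-OE libraries than in both controls, on few reads. So were 12.8% of all genes with a mean FPKM under 0.5 and 28.4% of all tested genes. Of the other low genes in the window, Acat3 was also lower (25 and 20 reads against 12 and 14). Pnldc1 (18 and 15 reads against 21 and 15), Mrgprh and Gm15946 had overlapping groups. Past the Airn span, Tcp1, a chaperonin subunit gene, measured 68.3 and 85.5 FPKM in the controls and 50.9 and 56.3 FPKM in SUV-OE, a log2 fold change of -0.51 (adjusted p = 0.188). Acat2, an acetyl-CoA acetyltransferase gene, stood at -0.46 (adjusted p = 0.148), and Sod2, the mitochondrial superoxide dismutase gene, at -0.36 (adjusted p = 0.214). The other tested genes there were Wtap at -0.14, Mrpl18 at -0.28 and Snora20 at 0.52, the last 2 with overlapping groups. Snora20 rested on few reads, 0 and 4 in the controls against 0 and 11 in SUV-OE (standard error 0.97). Slc22a3, an organic cation transporter gene also imprinted from this control region in placenta, measured 29.3 and 29.0 FPKM in the controls and 25.1 and 22.7 FPKM in SUV-OE, a log2 fold change of -0.28 (standard error 0.11, adjusted p = 0.260).

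**Figure D3:**
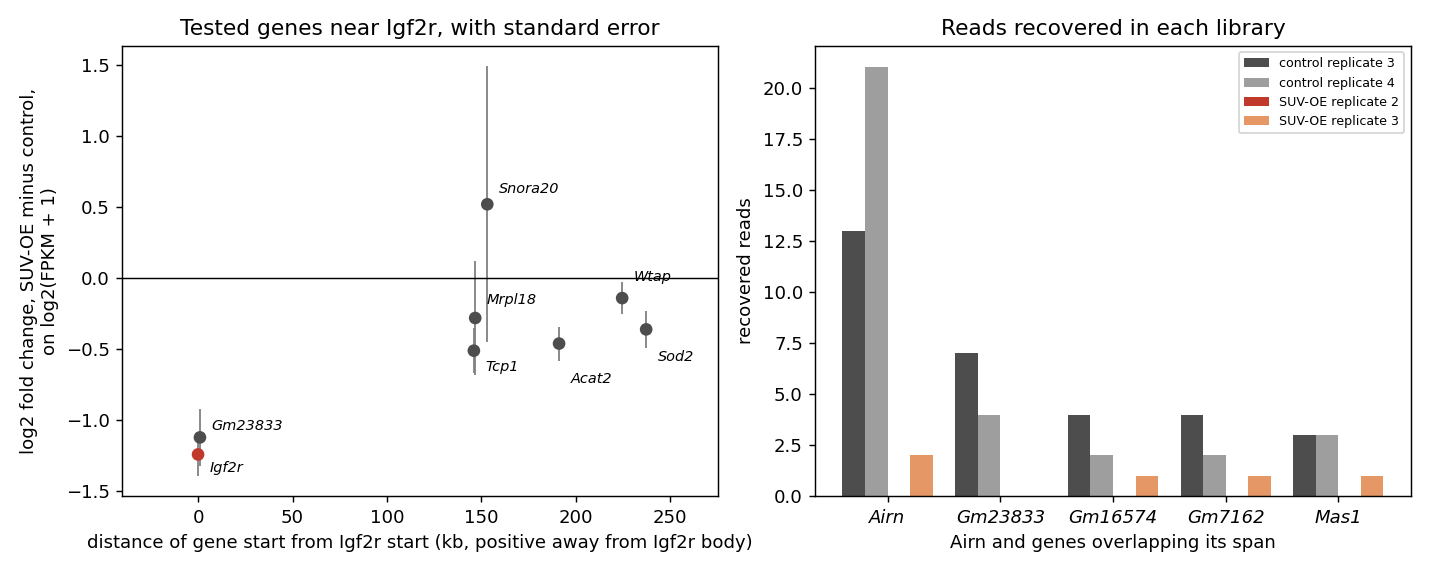
Left, log2 fold change (SUV-OE minus control, bars of 1 standard error) of tested genes by distance of their start from the Igf2r start in kb (Gm23833 was tested through its control values alone). Right, bars of recovered reads per library for Airn and 4 genes overlapping its span. Airn had 13 and 21 reads in the controls against 0 and 2 in SUV-OE, and SUV-OE replicate 2 had none for any of the 5. Reads at Gm23833, Gm16574 and Gm7162 cannot be told apart from Airn transcript.

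M6pr and Igf1r, genes of receptors related to IGF2R in ligand, were chosen after their values were seen. M6pr, the other mannose-6-phosphate receptor gene, measured 70.6 and 77.3 FPKM in the controls and 66.2 and 68.0 FPKM in SUV-OE (log2 fold change -0.14, adjusted p = 0.572). Igf1r, the receptor gene for IGF signaling, had 6.04 and 5.83 against 11.5 and 9.65 (log2 fold change 0.73, standard error 0.13, adjusted p = 0.0842). Igf2 itself, a growth factor, had 1 and 3 reads in the controls against 3 and 1 in SUV-OE, at or under the level of 3 reads in each library.

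Among the 40 genes, the Kcnq1 domain held 4 that were tested, 0 of which were called, with log2 fold changes from -0.30 to 0.09. Nap1l4, which encodes a histone chaperone and was the most abundant of the 35 genes with a row, measured 92.0 and 79.4 FPKM in the controls and 67.2 and 71.1 FPKM in SUV-OE. Both SUV-OE libraries were lower, and the log2 fold change was -0.30 (standard error 0.14, adjusted p = 0.303). Cd81, a tetraspanin gene, had 28.7 and 32.5 against 25.9 and 27.9 (log2 fold change -0.18, standard error 0.12, adjusted p = 0.467). Tssc4, an assembly factor gene of the spliceosome, had 24.5 and 26.1 against 21.9 and 21.2 (log2 fold change -0.22, standard error 0.11, adjusted p = 0.326). Ascl2, a basic helix-loop-helix transcription factor gene, had 5.42 and 4.16 against 5.42 and 4.85, with overlapping groups (log2 fold change 0.09, standard error 0.16). Kcnq1ot1, the long noncoding RNA that silences this domain on the paternal chromosome, measured 0.322 and 0.533 FPKM in the controls and 0.513 and 0.531 FPKM in SUV-OE. Because the transcript is very long this level stood for 529 and 759 reads in the controls against 768 and 796 in SUV-OE, and the groups overlapped by FPKM but not by reads. Kcnq1, the potassium channel gene that contains Kcnq1ot1, had at most 2 reads in a library, and so did Phlda2, a gene that restrains placental growth. Cdkn1c, the p57 cell cycle inhibitor gene of the same domain, was taken from a second list of imprinted genes and had 1.99 and 1.89 against 1.49 and 1.21 (log2 fold change -0.32, standard error 0.15, adjusted p = 0.306). The authors report p57 as higher in SUV-OE cells, the other direction, and the gene was not called here.

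Impact, which encodes an inhibitor of the GCN2 stress kinase, measured 7.80 and 7.87 FPKM in the controls and 6.03 and 6.05 FPKM in SUV-OE. The groups did not overlap, and the log2 fold change of -0.33 (standard error 0.11) had a limma adjusted p of 0.198. In the Mest domain, Copg2, a coat protein gene of the Golgi, had 17.1 and 18.5 against 15.5 and 15.7 (log2 fold change -0.18, standard error 0.11, adjusted p = 0.414). Mest, a paternally expressed gene of the hydrolase fold family, had 34 and 22 reads in the controls against 22 and 27 in SUV-OE. Mest and Copg2 share 912 exon bases on opposite strands, so reads there cannot be told apart.

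In the H13 domain, H13, the signal peptide peptidase gene, measured 19.7 and 24.4 FPKM in the controls and 20 and 21.3 FPKM in SUV-OE, with overlapping groups (log2 fold change -0.08, standard error 0.14). Mcts2, a retrogene inside H13, had 4.37 and 5.04 against 5.96 and 5.46, a log2 fold change of 0.24 (standard error 0.13, adjusted p = 0.377). Zrsr1, a splicing factor retrogene inside Commd1, had 1.61 and 2.38 against 2.20 and 2.54 (log2 fold change 0.18, standard error 0.18). Commd1, an endosomal trafficking gene, had 0.537 and 2.00 against 1.16 and 1.54, so the control libraries spanned both SUV-OE libraries (log2 fold change 0.12, standard error 0.35). Retrogenes have near copies at their parent genes, and Zrsr1 and Commd1 share 412 exon bases on opposite strands, so the values of Mcts2, Zrsr1 and Commd1 are uncertain.

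In the Nnat domain, Nnat, a small membrane proteolipid gene, measured 1.41 and 2.01 FPKM in the controls and 2.62 and 1.91 FPKM in SUV-OE (log2 fold change 0.27, standard error 0.20, adjusted p = 0.492). Blcap, the gene that surrounds it, had 9.04 and 7.85 against 8.72 and 8.17, a log2 fold change of 0.00 (standard error 0.12). Both pairs of groups overlapped. Gnas, which encodes the stimulatory G protein subunit, had 4.05 and 2.23 against 2.49 and 2.19 (log2 fold change -0.27, standard error 0.25), and control replicate 3 alone was high. Nespas, the antisense RNA at Gnas, had 39 and 29 reads in the controls against 17 and 24 in SUV-OE, so both SUV-OE libraries were lower by FPKM (0.638 and 0.547 against 0.305 and 0.430). Gnas and Nespas share 988 exon bases on opposite strands. In the Snrpn domain, Ube3a, a ubiquitin ligase gene that is imprinted in neurons, measured 4.03 and 5.08 FPKM in the controls and 5.22 and 5.27 FPKM in SUV-OE (log2 fold change 0.18, standard error 0.14, adjusted p = 0.535), and Ndn, a growth suppressor gene, had at most 2 reads in a library.

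Among the 20 low genes both SUV-OE libraries lay above both controls in 6 (Peg3, Peg10, Sgce, Ppp1r9a, Grb10 and Plagl1) and below in 2 (Airn and Nespas). Of all 9816 genes with a mean FPKM under 0.5, 26% lay above and 12.8% below, so neither count stands apart from the background. All 3 genes of the Peg10 domain were among the 6. Peg10, derived from a retrotransposon, had 0 and 2 reads in the controls against 12 and 20 in SUV-OE, a pooled ratio of 16.4 (95% counting interval 4.17 to 141). Ppp1r9a, which encodes a scaffold of protein phosphatase 1, had 9 and 7 against 39 and 21 reads (ratio 3.83, interval 2.18 to 7.13). Sgce, a sarcoglycan gene, had 6 and 5 against 10 and 10 (ratio 1.86, interval 0.849 to 4.3). Their limma-voom log2 fold changes at a mean of at least 1 read were 4.01 (adjusted p = 0.093) for Peg10, 1.90 (adjusted p = 0.116) for Ppp1r9a and 0.94 (adjusted p = 0.412) for Sgce, beside a median of 0.13 over all genes of that fit, and none was called.

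Grb10, the gene of an adaptor that restrains insulin and IGF receptors, had 17 and 14 reads in the controls against 28 and 49 in SUV-OE (ratio 2.54, interval 1.65 to 3.99, limma-voom adjusted p = 0.147). Plagl1, a zinc finger gene that regulates other imprinted genes, had 0 and 4 against 9 and 15 reads (ratio 6.14, interval 2.11 to 24.3, limma-voom adjusted p = 0.169). Peg3, a zinc finger gene, had 1 and 0 against 1 and 3 reads, a difference that was not detectable at this depth. Its neighbor Usp29, a deubiquitinase gene, had 0 and 4 against 0 and 1. The Dlk1-Meg3 domain was nearly silent. Meg3, its maternal noncoding RNA, had 11 and 1 reads in the controls against 1 and 2 in SUV-OE, and control replicate 3 alone was high. Dlk1, a Notch pathway ligand gene, had at most 3 reads in a library, and Rtl1 and Mirg at most 2. Rian was listed at 0 in 3 libraries and at an FPKM of 0.00644 in SUV-OE replicate 3.

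**Figure D4:**
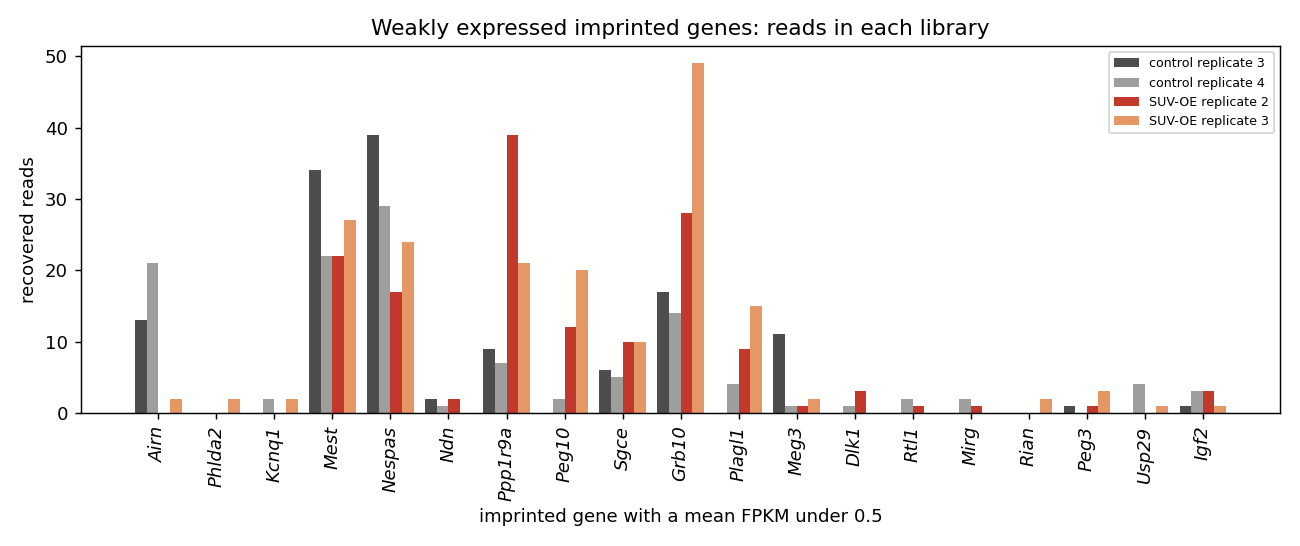
Bars of recovered reads in each of the 4 libraries for 19 of the 20 imprinted genes with a mean FPKM under 0.5 (Kcnq1ot1, with 529 to 796 reads, is left out). Ppp1r9a, Peg10, Grb10 and Plagl1 have their taller bars in the SUV-OE libraries, and Airn and Nespas in the control libraries.

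Markers of other cell types moved with the groups, and their part in the values above was not tested. The 10 neutrophil markers summed to an FPKM of 754 and 2392 in the controls against 6658 and 8106 in SUV-OE, and the 9 endothelial markers to 18 and 25.2 against 73.1 and 66.4. Most of the endothelial sum was Pecam1, and the other 8 summed to 1.29 and 1.93 against 2.87 and 2.33. The 13 B-lymphoid markers summed to 19.6 and 29.4 against 47.6 and 113, and the 8 megakaryocyte markers to 12.6 and 18.9 against 38.1 and 40.2. Most of the B-lymphoid sum in the controls was Cd79b (17.4 and 25 against 17.2 and 23.4). Of the 12 B-lymphoid markers tested, 10 lay above both controls and 0 below. The 12 stem cell markers with a row summed to 14.7 and 12.7 against 28.3 and 23.6, and 1 of the 4 tested, Hlf, was called higher. The erythroid sums were 22.4 and 145 against 155 and 125, those of T and NK cells 74 and 114 against 78.1 and 84.7, and those of stroma 9.68 and 9.45 against 10.9 and 7.73, with overlapping groups in each. Globins such as Hbb-bs (5.24 and 63.2 against 38.9 and 28.7) differed widely between the control libraries. Of the 13 erythroid markers, 8 lay above both controls and 0 below, with a median log2 fold change of 0.84. Most of the T and NK sum was Nkg7, without which the other 9 markers summed to 0.985 and 1.99 against 2.61 and 2.37, and most of the stromal sum was Pdgfrb, without which the other 11 summed to 1.13 and 1.67 against 2.42 and 2.16. The monocyte and macrophage sums, 420 and 713 against 419 and 454, were mostly Ly6c2 (281 and 545 against 229 and 269), while 8 of the 10 markers lay above both controls, with a median log2 fold change of 0.62 over the list. The 12 markers of c-Kit+ leukemic and myeloid progenitor cells summed to 5349 and 5953 against 3904 and 4667, and 0 of them were called. That sum was led by Ctsg (2236 and 2787 against 1226 and 1353), and the 12 log2 fold changes had a median of 0.02, with 6 positive and 6 negative. Called higher were 3 of the 13 erythroid markers and 1 each of the neutrophil, B-lymphoid, megakaryocyte and endothelial markers, and none of these lists had a call in the other direction. The B-lymphoid call (Vpreb2) and 1 erythroid call (Ermap) reached the test through their SUV-OE values alone. With limma-voom at a mean of at least 10 reads, 8 of 10 neutrophil, 10 of 12 B-lymphoid, 6 of 13 erythroid, 4 of 8 megakaryocyte, 4 of 8 stem cell, 5 of 10 monocyte and macrophage and 2 of 7 endothelial markers tested were called higher, where 4.44% of all genes were.

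A list of 41 genes that set, keep or read imprints was examined beside the imprinted genes. Of 39 with a row, 35 were tested, and Suv39h1 itself, which the vector carries, was the only call (log2 fold change 2.56, adjusted p = 0.00866). On leaving out each library, when no gene of the table was called, its log2 fold change was 2.51 to 2.62 (adjusted p 0.0975 to 0.186). The 34 others ranged from -0.44 to 0.38 in log2 fold change with a median of -0.11, and 2 passed an unadjusted p under 0.05 (Hells at -0.42 and Arid4a at 0.38), beside 20.7% of all tested genes. Zfp57, the zinc finger gene that marks control regions in embryos, was low, at 0.0407 and 0.0783 FPKM in the controls and 0.238 and 0.134 FPKM in SUV-OE. Zfp445, its partner in imprint maintenance, had 25.4 and 23.8 against 31.3 and 27.8 (log2 fold change 0.25, standard error 0.12, adjusted p = 0.316). The corepressor gene Trim28 stood at -0.11 and the methyltransferase gene Setdb1 at 0.14. The gene of the maintenance DNA methyltransferase, Dnmt1, stood at -0.20 and that of its partner Uhrf1 at -0.44 (standard error 0.18, adjusted p = 0.263). The de novo methyltransferase genes Dnmt3a and Dnmt3b stood at 0.29 and -0.19, the insulator gene Ctcf at -0.09, and Suv39h2, the paralog of Suv39h1, at -0.22.

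A second list of 49 further imprinted genes, which could not be checked against a catalogue, had 38 genes with a row, 22 of them tested. Their log2 fold changes ranged from -0.55 to 2.10 with a median of -0.09, 9 positive and 13 negative, and 7 of the 22 passed an unadjusted p under 0.05, beside 20.7% of all tested genes. Smoc1, which encodes a secreted matrix protein, was the only call. It measured 1.22 and 1.05 FPKM in the controls and 8.14 and 8.17 FPKM in SUV-OE, a log2 fold change of 2.10 (standard error 0.13, adjusted p = 0.0146), and the groups did not overlap. On leaving out each library, when no gene of the table was called, its log2 fold change was 2.04 to 2.16 (adjusted p 0.113 to 0.208).

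**Figure D5:**
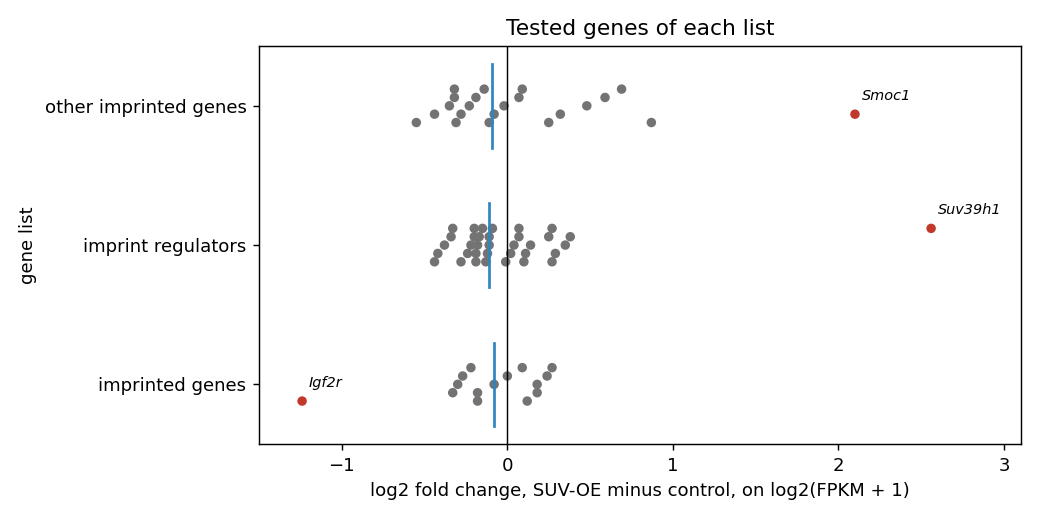
The log2 fold change (SUV-OE minus control, on log2(FPKM + 1)) of each tested gene of 3 lists, 1 point per gene, with blue lines at the list medians. Red points are the called genes, Igf2r at -1.24, Suv39h1 at 2.56 and Smoc1 at 2.10, and the other points lie between -0.55 and 0.87.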

How the data were processed

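Per the labels and the methods, the authors sequenced TruSeq v2 libraries on a HiSeq instrument, aligned reads to mm10 with TopHat2 and deposited FPKM (Cufflinks) per gene and library. CASAVA 1.8 is in the submitters' processing notes. The annotation release and whether counting used strand are not given in the sources used here. Of 23552 gene IDs, 23438 matched a GENCODE M21 symbol.

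The test was limma 3.58.1 (R 4.3.3) on log2(FPKM + 1), with group as the only term, an intensity trend and Benjamini-Hochberg adjustment over 13736 genes. The authors used DESeq2, which needs counts. In 78.5% of genes the FPKM were whole multiples of 1 read at the annotated exon length, within 0.01 reads. Reads recovered at the annotated or another exon length served for limma-voom and for intervals, which cover counting error only. Both steps were tested on simulated data.

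The members and lists were chosen with earlier results of these data known. All 40 members were named, and from the lists of regulators and further imprinted genes those called or past 1 in log2 fold change, main imprint regulators and Cdkn1c. Other genes were named after their values were seen. Alternatives were a pseudocount of 0.1, other filters, scalings, trends and thresholds, limma-voom at a mean of at least 10 reads (1 read was added later), and leaving out each library.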

Additional observations from a re-analysis of the deposited data

How the results depend on the processing

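The count of genes called, 168 by limma, was 0 without the filter on low values (4177 genes at an unadjusted p under 0.05), 342 at an adjusted p under 0.1, 772 with limma-voom and 671 with limma-voom at a mean of at least 1 read. It ranged from 0 to 0 on leaving out each library, where fits on 3 libraries assume that the lone sample varies like the other group and 1166 to 3877 genes had an unadjusted p under 0.05. The share called higher was 66.7% by limma and 82.1% by limma-voom, which moved the median of all genes to 0.08, and to 0.13 at a mean of at least 1 read. Imprinted genes called lower went from 1 to 0 at a pseudocount of 0.1, without the filter and on leaving out each library (0 to 0). The median log2 fold change of tested imprinted genes was -0.00046 without the filter, -0.0038 with quantile normalization, 0.05 with limma-voom, 0.14 with limma-voom at a mean of at least 1 read and -0.20 to -0.04 on leaving out each library. Imprint regulators called went from 1 to 0 without the filter and on leaving out each library. Other imprinted genes called went from 1 to 0 in the same fits, to 3 with limma-voom (Osbpl5, Sfmbt2 and Smoc1) and to 2 at a mean of at least 1 read. Sfmbt2, with 7 and 5 reads in the controls against 24 and 41 in SUV-OE, passed the 10-read filter through its SUV-OE values alone. At a mean of at least 1 read it was not called (limma-voom adjusted p = 0.0596).

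Of 195 gene values under alternatives, 178 kept direction and call, 6 lost the call (all Igf2r) and 11 changed sign. On leaving out each library, Ascl2 ranged from -0.07 to 0.25, Zrsr1 from -0.0088 to 0.36, Commd1 from -0.36 to 0.61, Blcap from -0.09 to 0.09, Gnas from -0.60 to 0.05 and H13 from -0.23 to 0.06. The value of changed sign came without control replicate 3 for Zrsr1, Commd1 and Gnas and without control replicate 4 for Ascl2, Blcap and H13, and Blcap was also below 0 (-0.04) without SUV-OE replicate 2. With quantile normalization Commd1 was -0.0038 and H13 0.02, and H13 was 0.01 with limma-voom at either filter. The cause of these changes was not tested. No paired analysis was possible because control and SUV-OE have just 1 number in common. Most low genes had under 50 reads per library, which limits the precision of their values.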

Other observations

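Osbpl5, an oxysterol-binding protein gene of the Kcnq1 domain, measured 2.5 FPKM in each control library and 5.98 and 4.82 FPKM in SUV-OE, a limma log2 fold change of 0.87 (standard error 0.15, adjusted p = 0.0784). Tfpi2, a protease inhibitor gene next to the Peg10 domain, had 0.559 and 1.12 against 1.68 and 2.22 (log2 fold change 0.69, adjusted p = 0.188). Gab1, a docking protein gene of receptor signaling, had 1.81 and 1.16 against 2.82 and 2.60 (log2 fold change 0.59, adjusted p = 0.181). Tnfrsf23, a decoy receptor gene of the Kcnq1 domain, had 1.89 and 2.83 against 1.17 and 1.39 (log2 fold change -0.55, adjusted p = 0.216). In each of these 4 genes, named after their values were seen, the groups did not overlap, and none was called by limma. Of other tested genes near Peg10 on the second list, Pon2 and Pon3 lay below both controls in both SUV-OE libraries. Pon2 measured 6.89 and 7.6 FPKM in the controls and 5.8 and 5.51 FPKM in SUV-OE. The log2 fold changes were -0.31 for Pon2 and -0.23 for Pon3, and Casd1 stood at 0.07 with overlapping groups. Gatm, elsewhere on that list, stood at -0.35 (adjusted p = 0.24).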
